A study of Mus musculus with 32 samples.

Results

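Differentiated macrophages of a mouse brain tumour were set against undifferentiated macrophages of the same tumour model, with 8 RNA-seq libraries of each. These are 16 of the 32 libraries in the series. No label ties a library of one population to the same animal as a library of the other. The members were taken by their labelled cell type, Tumour Differentiated Macrophage or Tumour Undifferentiated Macrophage, and no measured value chose them. Both populations were sorted by flow cytometry from brains of immunocompetent chimeric mice that carried intracranial GL-261, a mouse glioma line grown in hosts of its own strain background. In experiment 3 the mice were labelled PEP-3 into WT and the recipients were C57BL/6J, called WT recipients here. In experiment 4 they were labelled WT into PEP-3 and the recipients were of the strain labelled Pep3/CD45.1, called Pep3 recipients here. Read as donor into recipient, the labels swap the donor strain as well. Each population held 4 libraries per experiment, so for the macrophages donor, recipient and experiment are the same split and cannot be told apart. For the macrophages, WT and Pep3 name the recipient below, not the strain of the sorted cells. The mice were labelled as untreated apart from the implanted cells. The sources used here do not give their age, the sorting gates that separated differentiated from undifferentiated cells, or the share of host cells left in the chimeras. Whether each library is a mouse of its own is not stated, so a p-value reflects only how much these libraries varied, which may be technical. The other 16 libraries were 8 of tumour microglia from the same kind of chimera and 8 of normal microglia from mice without a tumour. For tumour microglia the labels give the experiment numbers the other way round, 4 for PEP-3 into WT and 3 for WT into PEP-3, so the labels conflict between populations, and libraries were placed here by recipient strain.

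Monocytes that enter inflamed tissue or a tumour from the blood carry Ly6C and the receptor CCR2 on their surface. As they turn into macrophages they usually lose these, and gain complement C1q, scavenger receptors, lysosomal enzymes and, often, MHC class II. In gliomas such cells share the tissue with microglia, the resident macrophages of the brain, which hold genes such as P2ry12 and Tmem119 that blood-derived cells express little.

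The deposited table held 17586 genes. Its values were signed scores from -6.50 to 6.92 of unstated scale, with a mean of 0 for every gene, so differences are given in score units, never as folds, and levels of different genes were not compared. Sequencing depth is unknown. The table held no variation in 11 directions among the 32 samples: the overall mean, the recipient difference and 9 that the labels do not name. These took most of the own variation of 4 macrophage libraries, which kept under 50% of it: differentiated libraries 28 (12.4%) and 31 (16.9%), and undifferentiated libraries 29 (3.42%) and 8 (20.01%). The scores of these 4 libraries therefore partly repeat those of others. The own variation kept summed to 5.32 of 8 differentiated and 5.31 of 8 undifferentiated libraries. Counts such as 8 of 8 libraries are thus not counts of independent replicates. The overlaps of Ly6c2, Plac8 and Timp2 were also read in the 6 differentiated and 6 undifferentiated libraries that kept more, a choice made after the data were seen. Other overlaps and library counts of single genes and lists include the 4 libraries. The fitted difference, differentiated minus undifferentiated, came from limma over all genes and all libraries with the 11 directions as covariates. At an equal spread, the variance of the contrast without these covariates was 65.9% of that with them. They thus lowered its precision, and the percentage is not a scaling of its size. The median standard error (SE) of the fitted difference over all genes was 0.50 and the median half-width of its 95% confidence interval was 1.03. That interval is not adjusted over all genes, and a call needed a larger difference. Differences of -3.59 for Plac8 and 3.14 for Klhl5 were not called, so a gene without a call may still differ. Library medians ran from 0.0021 to 0.581 in differentiated and from 0.0576 to 0.464 in undifferentiated macrophages.

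Both populations scored higher for monocyte genes and lower for homeostatic microglia genes than tumour microglia, the same 8 microglia libraries serving both comparisons. From these microglia 43.4% of all genes differed in differentiated and 41.9% in undifferentiated macrophages, in either direction. Ccr2, the chemokine receptor that brings monocytes into tissue, was higher than in tumour microglia by 3.26 in differentiated macrophages (limma adjusted p = 3.7e-05) and by 4.98 in undifferentiated macrophages (adjusted p = 2.1e-06). Of 16 homeostatic microglia genes, 16 were called lower than in tumour microglia in differentiated macrophages and 16 in undifferentiated macrophages, where 6.35% and 5.19% of all genes were called lower. Of 20 classical monocyte genes, 16 were called higher in differentiated and 19 in undifferentiated macrophages, where 37% and 36.7% of all genes were called higher. The list's median difference from tumour microglia was 2.00 in differentiated and 2.97 in undifferentiated macrophages, where the median of all genes was 0.65 and 0.71. Lists of other cells were raised too, with medians of 2.13 and 1.91 for T and NK cell genes and 1.66 and 2.01 for B cell genes. Glioma genes were at 1.73 and 2.09, astrocyte genes at 1.44 and 1.45, neuron genes at 1.41 and 1.74, and oligodendrocyte genes at 0.17 and 1.02. Height over tumour microglia was thus not particular to monocyte genes, and its reason was not tested.

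Between the macrophage populations themselves few single genes separated. Of 17586 genes, 2 fell in differentiated macrophages at a limma adjusted p below 0.05, which is 0.0114% of those tested, and 0 rose (0%). Both were monocyte genes, Ly6c2 and S100a4. At an unadjusted p below 0.05 in limma, 322 genes were lower (1.83%) and 169 were higher (0.961%) in differentiated macrophages. Together they were 491 genes (2.79%), fewer than a threshold of 0.05 alone would give if no gene differed. The unadjusted p-values of single genes below are therefore descriptive only. The fitted difference was negative for 54.2% of all genes, its median was -0.046, and the middle 50% of genes lay between -0.34 and 0.24.

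Ly6c2 encodes one of the Ly6C surface proteins by which mouse monocytes are sorted, and it ranked lowest of all genes. Whether Ly6C was among the sorting gates of these populations is not given in the sources used here. Its rank can therefore not be taken as independent of the sort. In WT recipients its scores were -0.86, 1.70, 1.44 and 2.49 in differentiated libraries 4, 12, 20 and 28, against 2.22, 4.02, 4.81 and 1.20 in undifferentiated libraries 5, 13, 21 and 29. In Pep3 recipients they were 0.07, 0.14, -0.68 and 3.18 in differentiated libraries 7, 15, 23 and 31, against 2.71, 3.24, 2.42 and 2.20 in undifferentiated libraries 8, 16, 24 and 32. The groups overlapped through libraries 28, 31 and 29, all of which kept under 50% of their own variation. Among the libraries that kept more, the scores ran from -0.86 to 1.70 in differentiated and from 2.20 to 4.81 in undifferentiated macrophages and did not overlap, as for 17 genes in that direction (0.0967% of all genes). Random order of 6 against 6 libraries separates about this share of genes. The fitted difference was -3.17 ± 0.48 (SE, 8 against 8 libraries, limma adjusted p = 0.0172), with -3.09 ± 0.65 in WT and -3.25 ± 0.65 in Pep3 recipients. Both populations stayed above tumour microglia, by 2.40 for differentiated and 5.57 for undifferentiated macrophages. Ly6c2 has a near-identical neighbour, Ly6c1, not analysed here, and how reads shared by the 2 genes were divided is not given in the sources used here, so its value is uncertain in that respect.

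S100a4, a calcium-binding protein linked to cell motility and abundant in monocytes, was the other gene that fell. In WT recipients its scores were -2.23, 0.20, -0.90 and 1.69 in differentiated libraries 4, 12, 20 and 28, against 2.52, 3.46, 4.65 and 0.98 in undifferentiated libraries 5, 13, 21 and 29. In Pep3 recipients they were 1.24, 1.83, -0.68 and 2.31 in differentiated libraries 7, 15, 23 and 31, against 1.50, 1.72, 0.58 and 2.51 in undifferentiated libraries 8, 16, 24 and 32. In WT recipients the groups overlapped at differentiated library 28 and undifferentiated library 29 only, both of which kept little of their own variation, while in Pep3 recipients the groups overlapped widely. The fitted difference was -3.10 ± 0.51 (limma adjusted p = 0.0320), made of -4.87 ± 0.69 in WT and -1.32 ± 0.69 in Pep3 recipients. The difference between recipients was -3.55 ± 0.93 with an unadjusted p of 0.00085, and it did not pass adjustment over all genes (adjusted p = 0.770).

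Neither call held against every library left out. Ly6c2 was called in 10 and S100a4 in 7 of the 16 fits that each left out 1 macrophage library. The Ly6c2 call was lost without differentiated libraries 4, 7 or 23 or undifferentiated libraries 13, 16 or 21, where its adjusted p lay between 0.0751 and 0.164. The S100a4 call was lost without differentiated libraries 4, 7, 20, 23 or 31 or undifferentiated libraries 13, 16, 21 or 32, where its adjusted p lay between 0.0679 and 0.228. Over these 16 fits the Ly6c2 difference ran from -3.42 to -2.69 and the S100a4 difference from -3.39 to -2.76. With no terms for the removed directions they were -1.92 and -1.81, with an adjusted p of 1.00 for each. Both calls were also lost in the 16 macrophage libraries alone with those terms, where the limma adjusted p was 0.245 for Ly6c2 and 0.299 for S100a4. They were lost with runs of 8 library numbers as a factor, where the differences were -3.11 and -2.97 and the limma adjusted p was 0.0547 for Ly6c2 and 0.0544 for S100a4.

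**Figure D1:**
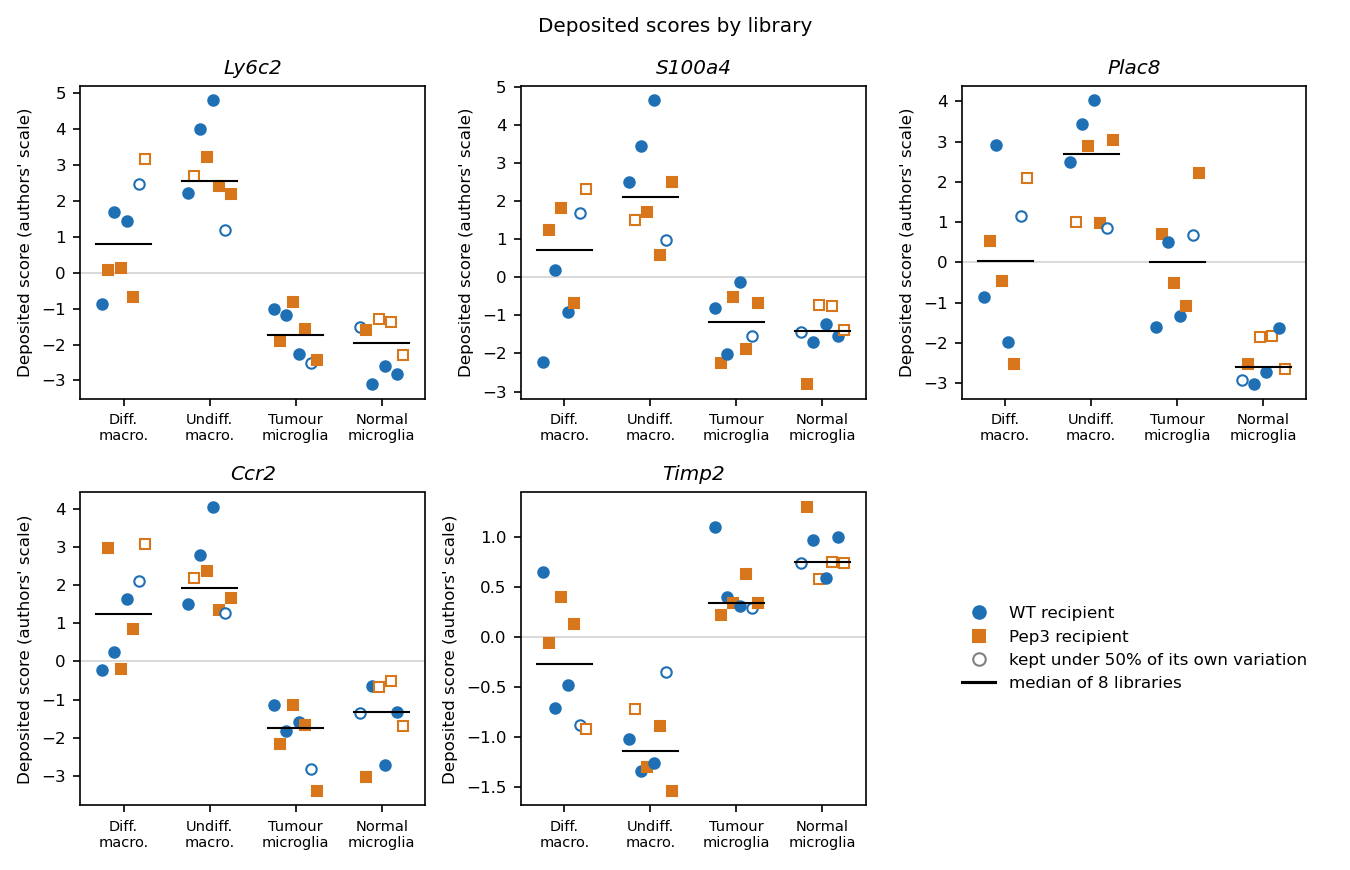
Deposited score (y axis, authors' scale) of Ly6c2, S100a4, Plac8, Ccr2 and Timp2 in each library of the 4 populations, 8 libraries each; circles are WT and squares Pep3 recipients, open symbols are libraries that kept under 50% of their own variation and lines are medians. Ly6c2 had a median of 0.79 in differentiated and 2.56 in undifferentiated macrophages, both above the median of -1.74 in tumour microglia, while Timp2 ran the other way, with -0.27 in differentiated and -1.14 in undifferentiated macrophages.

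The next genes at the low end did not pass the adjusted threshold. Plac8, a small cysteine-rich protein of myeloid cells, scored -2.51 to 2.91 with a median of 0.03 in differentiated macrophages, against 0.86 to 4.03 with a median of 2.69 in undifferentiated macrophages. Its groups overlapped, also without the 4 libraries that kept little, and its fitted difference was -3.59 ± 0.74 (limma adjusted p = 0.317), with -3.98 in WT and -3.19 in Pep3 recipients. The transcripts listed as AK158619 and AK166554, which no table used here names, had differences of -4.06 ± 0.72 (adjusted p = 0.0604) and -3.36 ± 0.74 (adjusted p = 0.478). The score of AK158619 ran from -2.56 to 0.75 in differentiated and from -1.04 to 4.09 in undifferentiated macrophages. Its difference was -1.67 in WT and -6.46 in Pep3 recipients.

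Ly6c2, S100a4 and Plac8 were the annotated genes with the lowest ranks, and their promoter windows are shown so that they can be read beside these values. Each runs from 250 bases before to 50 bases after a transcription start in RefSeq on GRCm38.p6, a later build than the mm9 named in the submitters' processing notes, on the gene's own strand. The windows lie at chr15:75111922-75112221 on the minus strand for Ly6c2, at chr3:90603520-90603819 on the plus strand for S100a4 and at chr5:100572156-100572455 on the minus strand for Plac8. Ly6c2 and Plac8 each have 2 starts listed, of which 1 is shown. Capitals mark GAGGAA or its reverse complement TTCCTC, the purine-rich core that factors such as PU.1 bind, and TATAAA, the TATA box.
Ly6c2: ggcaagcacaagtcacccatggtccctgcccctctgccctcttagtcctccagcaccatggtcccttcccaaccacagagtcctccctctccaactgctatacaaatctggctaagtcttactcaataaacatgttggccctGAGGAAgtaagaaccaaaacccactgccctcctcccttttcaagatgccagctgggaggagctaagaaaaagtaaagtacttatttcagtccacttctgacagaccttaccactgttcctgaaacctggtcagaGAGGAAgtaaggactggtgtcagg
S100a4: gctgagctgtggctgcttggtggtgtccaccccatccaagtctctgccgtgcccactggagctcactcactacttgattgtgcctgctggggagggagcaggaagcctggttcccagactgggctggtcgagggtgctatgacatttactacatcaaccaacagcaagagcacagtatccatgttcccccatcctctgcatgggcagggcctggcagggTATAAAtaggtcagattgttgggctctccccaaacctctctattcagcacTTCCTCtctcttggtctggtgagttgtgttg
Plac8: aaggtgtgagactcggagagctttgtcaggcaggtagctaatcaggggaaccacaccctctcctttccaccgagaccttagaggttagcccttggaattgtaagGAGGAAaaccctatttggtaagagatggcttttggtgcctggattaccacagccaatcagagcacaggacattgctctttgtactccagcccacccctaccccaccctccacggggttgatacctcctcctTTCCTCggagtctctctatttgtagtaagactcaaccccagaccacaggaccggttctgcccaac
GAGGAA on either strand lay at 108 bases before and 26 after the start in Ly6c2, at 19 after it in S100a4, and at 146 and 15 before it in Plac8, counted to the first marked base. The window of S100a4 also held TATAAA at 31 bases before the start. Of 32851 RefSeq windows of the same length, 28.3% held GAGGAA on either strand and 13.6% held TATAAA on either strand, so these matches are common and describe the letters only. TTGCNNAA, the core bound by C/EBP factors, was in 10.8% of all windows and in none of these 3.

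Other monocyte markers lay on the same side. Ccr2 scored -0.23 to 3.08 with a median of 1.24 in differentiated macrophages, against 1.27 to 4.05 with a median of 1.93 in undifferentiated macrophages. Of the differentiated libraries 5 lay below the undifferentiated median, and 4 stood inside the undifferentiated range. Its fitted difference of -1.72 ± 0.56 ranked 34 from the lowest but did not pass (unadjusted p = 0.0051, limma adjusted p = 1.00). S100a6, a calcium-binding relative of S100a4, had a difference of -1.84 ± 0.61 (unadjusted p = 0.0064) and was below the undifferentiated median in 7 of 8 libraries.

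Read as a group, the classical monocyte list lay toward the low end of the ranking. Of its 20 analysed members 2 fell, 0 rose and 18 did not pass, and 19 of the 20 differences were negative, where 0.0114% of all genes fell and 54.2% had a negative difference. Its median difference was -0.71, beside -0.046 over all genes, and 11 members stood in the lowest 10% of all genes and 0 in the highest. Members with the smallest differences were the matrix proteoglycan Vcan at -0.08 ± 0.38, the antioxidant enzymes Gsr at -0.10 ± 0.44 and Mgst1 at -0.03 ± 0.70, and the clotting factor subunit F13a1 at 0.18 ± 0.60, which monocytes and tissue macrophages both express. The secreted proteins Hp, the haemoglobin carrier haptoglobin, and Thbs1, thrombospondin, had differences of -1.64 ± 0.94 and -1.12 ± 0.57, and Lyz2, the lysozyme of all myeloid cells, had one of -0.68 ± 0.41. The list median stayed negative when any 1 macrophage library was left out (-0.88 to -0.48). It was -0.19 with no terms for the removed directions. Averaged over the list, the deposited scores ran from -0.19 to 1.82 with a median of 1.18 in differentiated macrophages, against 0.81 to 2.90 with a median of 1.46 in undifferentiated macrophages, so that 1 number per library did not separate the populations. In bulk samples fewer cells of a kind and less RNA per cell cannot be told apart, here and in every list below.

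Non-classical monocytes are the patrolling Ly6C-low form that depends on the nuclear receptor Nr4a1. Of their 12 listed genes 7 were analysed, 0 were called, and their median difference was -0.11, with Klf2, a transcription factor of quiescent leukocytes, lowest at -0.56 ± 0.47 and Nr4a1 highest at 0.43 ± 0.62. None of the 7 stood in the lowest or the highest 10% of genes.

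**Figure D2:**
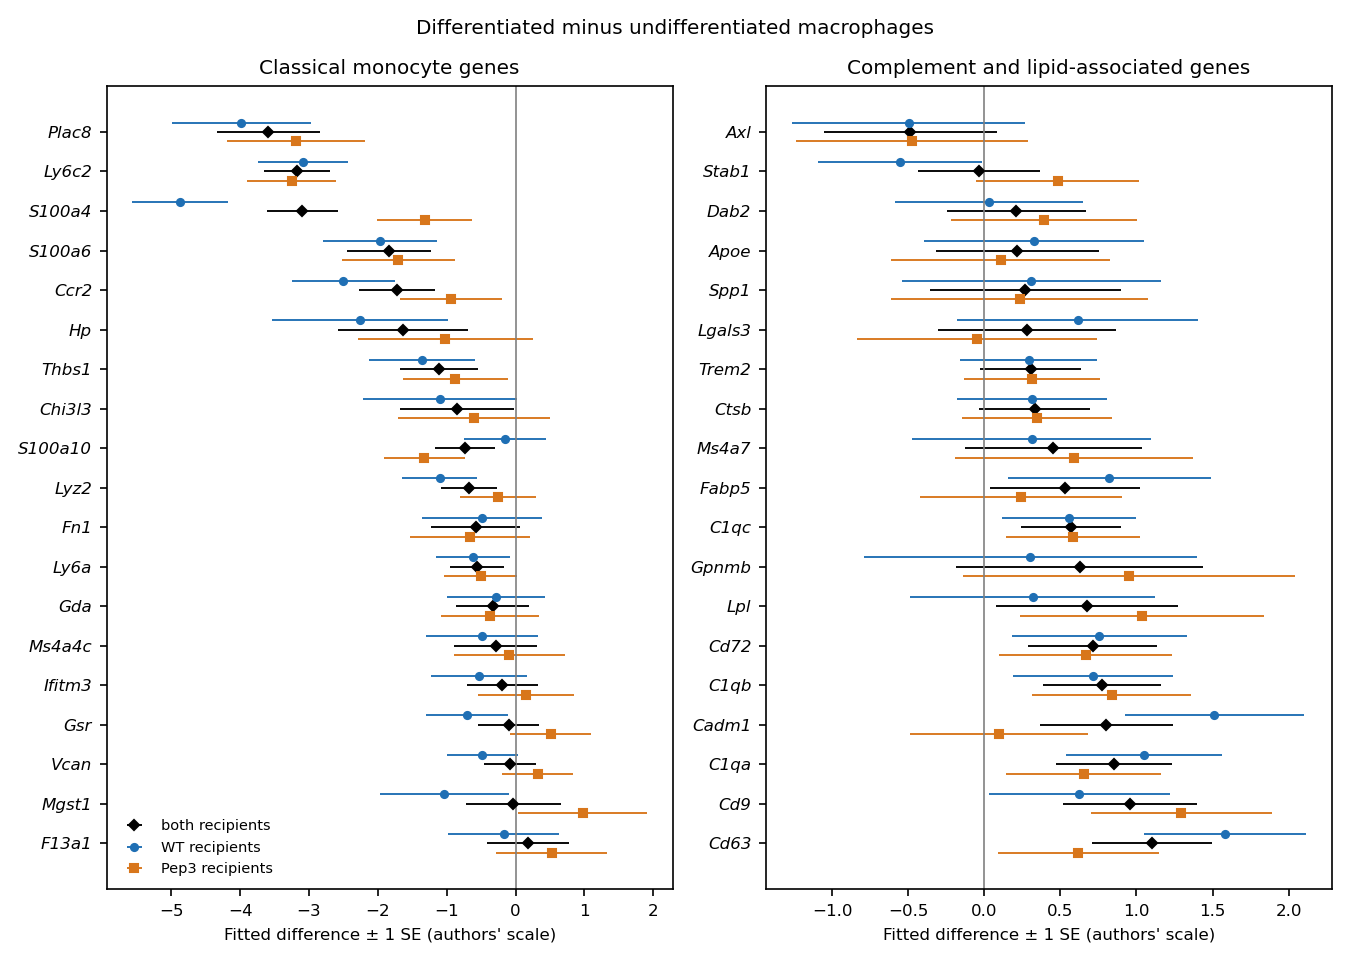
Fitted difference in score, differentiated minus undifferentiated, with 1 SE, for 19 of the 20 classical monocyte genes (left) and the 19 complement and lipid-associated macrophage genes (right); diamonds average both recipients, circles are WT and squares Pep3 recipients. On the left S100a4 shows the widest gap between recipients, at -4.87 in WT and -1.32 in Pep3 recipients, and on the right the differences run from -0.49 for Axl to 1.10 for Cd63.

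Genes of complement and of lipid-associated macrophages made up the list with the highest median of the 32 lists, 0.53. None of its 19 analysed members passed the adjusted threshold, 17 differences were positive, 9 members stood in the highest 10% of all genes and 0 in the lowest, and 3 had an unadjusted p below 0.05, beside 0.961% of all genes higher at that level. These 3 were the tetraspanins Cd63, at 1.10 ± 0.39, and Cd9, at 0.96 ± 0.44, and C1qa at 0.85 ± 0.38. Cd63 sits in late endosomes and lysosomes, and Cd9 is a surface marker of lipid-laden macrophages. Cd63 scored 0.13 to 1.35 with a median of 0.79 in differentiated macrophages, against -1.17 to 0.67 with a median of -0.05 in undifferentiated macrophages. All 8 differentiated libraries were above the undifferentiated median for Cd63, though the ranges overlapped. The 3 chains of C1q, the recognition protein of the classical complement pathway, had differences of 0.85 ± 0.38 for C1qa, 0.78 ± 0.39 for C1qb and 0.57 ± 0.33 for C1qc. These were 0.56 to 1.05 in WT and 0.58 to 0.84 in Pep3 recipients. All 3 chains were lower than in tumour microglia in both populations, by 0.91 to 1.76 in differentiated and by 1.48 to 2.54 in undifferentiated macrophages. The lipid receptor Trem2 and the lipid carrier Apoe differed by 0.30 ± 0.33 and 0.22 ± 0.54. The secreted glycoprotein Spp1 and the membrane glycoprotein Gpnmb, both marks of tumour macrophages, differed by 0.27 ± 0.63 and 0.63 ± 0.81. The receptor kinase Axl, which binds dying cells, had the lowest difference of the list at -0.49 ± 0.57. The list median lay between 0.32 and 0.71 when any 1 macrophage library was left out, and was lowest without differentiated library 7.

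Core macrophage genes, those shared by macrophages of many tissues, showed a smaller displacement. Of 33 members 0 were called, 24 differences were positive, and the median was 0.22 with 7 members in the highest 10% of genes and 0 in the lowest. The highest was Fcgrt, the recycling receptor of IgG, at 1.01 ± 0.52, and the lowest was Mertk, a receptor for the uptake of dying cells, at -0.32 ± 0.57. The median lay between 0.15 and 0.36 when any 1 macrophage library was left out, and was highest without undifferentiated library 16. Emr1, which encodes the F4/80 surface antigen, differed by 0.69 ± 0.43, while Fcgr1, the high-affinity IgG receptor CD64, differed by 0.04 ± 0.37. The lysosome list had 16 of 22 differences positive, 0 called and a median of 0.24, which was 0.11 without differentiated library 15, 0.14 without undifferentiated library 13 and 0.42 without undifferentiated library 16. Its highest members were Atp6v0d2, a subunit of the proton pump of macrophages and osteoclasts, at 1.32 ± 0.50, and Acp5, tartrate-resistant acid phosphatase, at 1.24 ± 0.47, with unadjusted p-values of 0.014 and 0.015. Acp5 scored 1.94 to 3.91 with a median of 3.37 in differentiated macrophages, against 0.66 to 3.47 with a median of 1.97 in undifferentiated macrophages. Cd68, a lysosomal membrane protein of macrophages, had a difference of 0.00 ± 0.60, and Npc2, a lysosomal cholesterol carrier, had the lowest of the list at -0.19 ± 0.33.

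**Figure D3:**
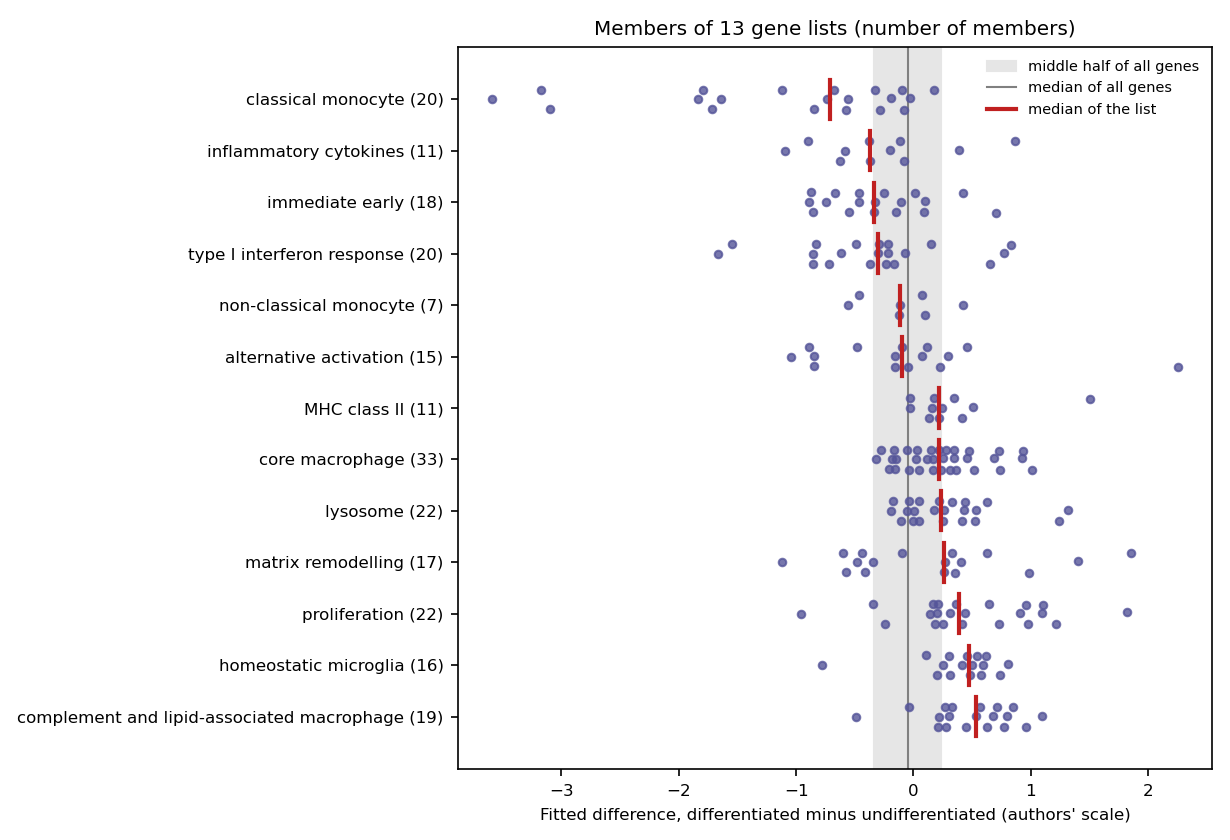
Fitted difference in score, differentiated minus undifferentiated (x axis), of each analysed member of 13 gene lists; points are genes, their height within a row has no meaning, red bars are list medians, the grey line is the median of all 17586 genes and the band their middle 50%. The classical monocyte median of -0.71 lies left of the band, and the medians of 0.39 for proliferation, 0.47 for homeostatic microglia and 0.53 for complement and lipid-associated genes lie right of it.

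Timp2, an inhibitor of matrix metalloproteinases, ranked highest of all genes. It scored -0.92 to 0.65 with a median of -0.27 in differentiated macrophages, against -1.54 to -0.35 with a median of -1.14 in undifferentiated macrophages. The libraries that kept over 50% of their own variation did not overlap, at -0.71 to 0.65 in differentiated and -1.54 to -0.89 in undifferentiated macrophages, as for 11 genes in that direction (0.0625% of all genes). Random order of 6 against 6 libraries separates a larger share of genes than that. Its fitted difference was 1.40 ± 0.33 (unadjusted p = 0.00027, limma adjusted p = 0.664), with 1.24 in WT and 1.56 in Pep3 recipients. Compared with tumour microglia, Timp2 differed by -0.49 in differentiated macrophages (adjusted p = 0.166) and was lower by 1.89 in undifferentiated macrophages. The 17 matrix genes lay to neither side, with 9 differences positive and 8 negative, 0 called, 4 members in the lowest 10% of genes and 3 in the highest. Their median of 0.26 was 0.04 in WT and -0.04 in Pep3 recipients, and it lay between -0.10 without differentiated library 20 and 0.39 without undifferentiated library 21. Mmp13, an interstitial collagenase, differed by 1.86 ± 0.78 (unadjusted p = 0.025) and was above the undifferentiated median in 8 of 8 differentiated libraries, and Mmp12, macrophage elastase, differed by 0.99 ± 0.47 (unadjusted p = 0.045). The membrane-bound Mmp14 differed by -0.60 ± 0.47. The other genes with the highest ranks were Klhl5, a kelch-family protein, at 3.14 ± 0.87, the tRNA methyltransferase Trmt11 at 1.71 ± 0.48, and mKIAA1998 and AK043607, which no table used here names, at 2.32 ± 0.61 and 2.99 ± 0.80. None of these passed the adjusted threshold. The mKIAA1998 difference was 1.50 without undifferentiated library 16 and 0.12 in the macrophage libraries alone with terms for the removed directions, so its place among the highest depended on the fit. In that fit AK043607 and Klhl5 were at 1.55 and 1.54.

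Across all 8 differentiated and all 8 undifferentiated libraries, the scores of 1 gene did not overlap with differentiated macrophages lower (0.00569% of all genes) and of 0 with them higher. That gene was Noxo1, an organiser of an NADPH oxidase, named after its values were seen, with a fitted difference of -1.25.

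**Figure D4:**
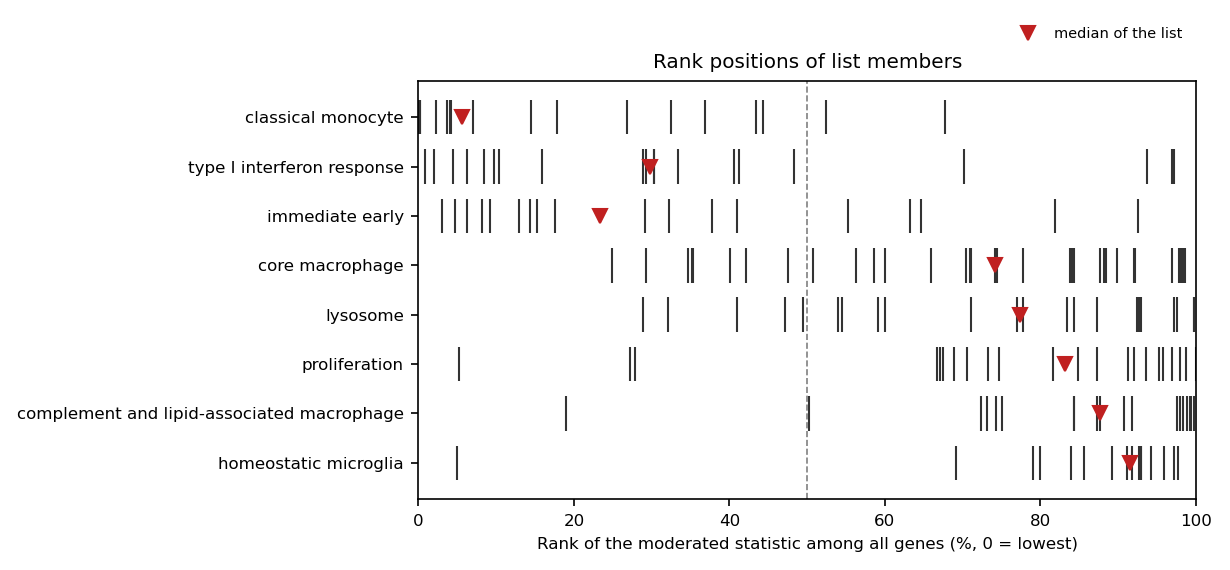
Position of each member of 8 gene lists in the ranking of all genes by the moderated statistic (x axis, 0% lowest and 100% highest in differentiated macrophages); ticks are genes and triangles list medians. The median member stood at 5.64% for classical monocyte genes, 87.6% for complement and lipid-associated genes and 91.5% for homeostatic microglia genes.

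Antigen presentation and activation genes held no call. The 11 MHC class II genes had a median difference of 0.22, with H2-Ab1, a class II chain, at 0.18 ± 0.46, its partner H2-Aa at 0.22 ± 0.43 and the invariant chain Cd74 at 0.41 ± 0.45. H2-DMb2, a chain of the peptide loader H2-DM, was the highest at 1.51 ± 1.04, a value that rested on undifferentiated library 21 and was 0.03 without it. Among 15 genes of alternative activation the median was -0.09. Arg1, the arginase that marks tumour macrophages, and the mannose receptor Mrc1 differed by 0.23 ± 1.00 and 0.07 ± 0.60, while both were higher than in tumour microglia in both populations, Arg1 by 3.58 in differentiated and 3.35 in undifferentiated macrophages. Retnla, a secreted protein induced by interleukin-4, scored 0.39 to 4.80 with a median of 1.84 in differentiated macrophages, against -2.26 to 2.42 with a median of 0.29 in undifferentiated macrophages. Its difference of 2.25 ± 0.79 did not pass (unadjusted p = 0.0092, limma adjusted p = 1.00), though 8 of 8 differentiated libraries were above the undifferentiated median. The anti-inflammatory cytokine Il10 was lowest of this list at -1.04 ± 0.62. Of 14 costimulation and checkpoint genes 0 were called, from -1.12 ± 0.67 for Tnfsf9, the ligand of 4-1BB, to 0.58 ± 0.37 for Havcr2, which encodes TIM-3.

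Inflammatory and interferon genes held 0 calls. The median was -0.37 over 11 inflammatory cytokine genes, of which 9 differences were negative. It lay between -0.50 and -0.11 when any 1 macrophage library was left out, nearest 0 without differentiated library 23, and was -0.04 with no terms for the removed directions. Il1a, which encodes interleukin-1 alpha, differed by -1.09 ± 0.50 (unadjusted p = 0.040), with 8 of 8 differentiated libraries below the undifferentiated median, and Ptgs2, the inducible cyclooxygenase, was highest at 0.86 ± 0.48. Of 20 type I interferon response genes 16 differences were negative and the median was -0.30, from -1.66 ± 0.82 for Oas3, an antiviral oligoadenylate synthetase, to 0.83 ± 0.52 for Ifi44, another interferon-induced gene. Zbp1, a sensor of Z-form nucleic acid, had the only unadjusted p below 0.05 among them, with a difference of -1.54 ± 0.62. The interferon median was -0.68 in WT and 0.11 in Pep3 recipients, so its side was not shared by the 2 experiments, and the difference between them was not tested for the list. Among 18 immediate early genes, which respond within minutes to stimulation and to tissue dissociation, 13 differences were negative, with a median of -0.33, from -0.89 ± 0.90 for Egr2 to 0.71 ± 0.60 for Fosb, both transcription factors. The immediate early median lay between -0.45 and -0.18 when any 1 macrophage library was left out. It kept its sign in 26 of 27 alternatives and was 0.12 at its highest. The 16 chemokine genes divided evenly, with a median of 0.13. The monocyte attractants Ccl7 and Ccl2, ligands of Ccr2, differed by -1.34 ± 0.67 and -1.05 ± 0.51, and Ccl4, a chemokine of activated macrophages, by 1.78 ± 1.12. The Ccl4 difference was not stable, at 0.88 without differentiated library 20, 2.75 without differentiated library 4, 0.55 in WT and 3.02 in Pep3 recipients.

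Transcription factors and adhesion genes held no call. Over 18 factors of monocytes and macrophages the median was -0.17, from -1.05 ± 0.53 for Cebpd, a C/EBP factor of the inflammatory response, to 0.65 ± 0.44 for Cebpa, the C/EBP factor of early myeloid cells. The list median was -0.29 in WT and 0.17 in Pep3 recipients, so its side was not shared by the 2 experiments, and the difference between them was not tested for the list. Irf8, needed for monocyte development, differed by 0.16 ± 0.34. Of 19 adhesion and migration genes 0 were called and the median was 0.06. Ccr2 is described above, the hyaluronan receptor Cd44 differed by -0.57 ± 0.51, and Itgax, which encodes CD11c, was highest at 0.97 ± 0.53.

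Cell-cycle genes leaned to the differentiated side. Of 22 proliferation genes 19 differences were positive, 0 were called, and the median was 0.39 with 9 members in the highest 10% of genes. Stmn1, a microtubule regulator of dividing cells, scored -0.63 to 2.04 with a median of 0.44 in differentiated macrophages, against -2.21 to 0.43 with a median of -0.49 in undifferentiated macrophages. Its difference of 1.83 ± 0.55 did not pass (unadjusted p = 0.0029, limma adjusted p = 1.00). Mki67, the Ki-67 antigen of cycling cells, differed by 0.25 ± 0.54, Top2a, the topoisomerase of dividing cells, by 0.96 ± 0.61, and Pcna, the replication clamp, by -0.96 ± 0.61. As a median over libraries, the deposited list average was 0.25 in differentiated macrophages, 0.05 in undifferentiated macrophages and 0.65 in tumour microglia. Energy metabolism held no call and small medians. These were -0.16 over 18 genes of oxidative phosphorylation, from Ndufa1 of complex I at -0.91 ± 0.50 to cytochrome Cyc1 at 0.58 ± 0.44, and -0.09 over 22 genes of glycolysis and hypoxia, from the lactate exporter Slc16a3 at -0.95 ± 0.63 to the glycolytic mutase Pgam1 at 0.52 ± 0.39. The medians were 0.04 over 15 genes of lipid handling, from the apolipoprotein Apoc2 at -1.13 ± 0.89 to the lipase Lpl at 0.68 ± 0.60, and 0.12 over 11 genes of iron and haem, from haem oxygenase Hmox1 at -0.79 ± 0.55 to transferrin, Trf, at 0.74 ± 0.44. The median over 20 cytosolic ribosomal proteins was 0.15, from Rpl18 at -0.30 ± 0.38 to Rpl19 at 0.44 ± 0.35.

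Markers of microglia lay on the same side as the macrophage genes. Of 16 homeostatic microglia genes 0 were called between the macrophage populations, 15 differences were positive, 9 members stood in the highest 10% of genes and the median was 0.47. P2ry12, the purine receptor of surveying microglia, was highest at 0.80 ± 0.47 and Tmem119 differed by 0.50 ± 0.34, while Gpr84, a fatty acid receptor, was lowest at -0.78 ± 0.49. The deposited list averages did not show this order, at -2.15 to -0.68 with a median of -1.49 in differentiated and -2.13 to -0.84 with a median of -1.31 in undifferentiated macrophages, against 1.04 in tumour microglia. Without terms for the removed directions the median difference over the list was 0.05. Its part in the differences of the complement, lysosome and proliferation lists, which were also positive, was not tested.

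**Figure D5:**
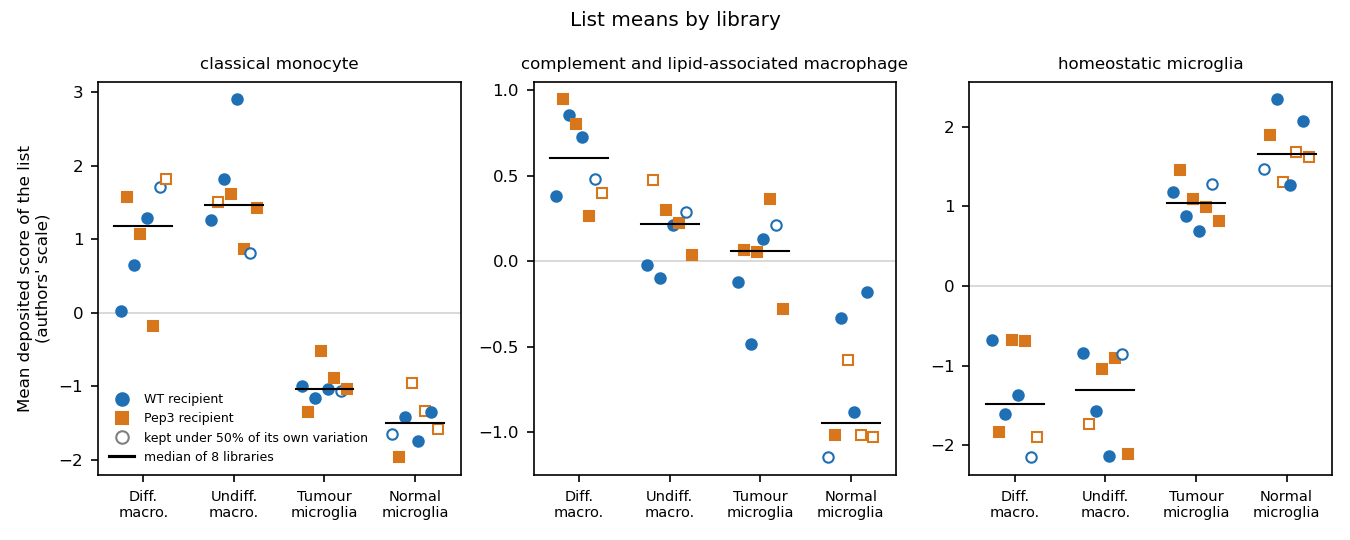
Mean deposited score of 3 gene lists in each library (y axis, authors' scale) for the 4 populations, 8 libraries each, with symbols by recipient, open for libraries that kept under 50% of their own variation, and lines for medians. Homeostatic microglia genes averaged -1.49 in differentiated and -1.31 in undifferentiated macrophages, far under tumour microglia at 1.04, and complement and lipid-associated genes averaged 0.60 in differentiated and 0.22 in undifferentiated macrophages.

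Markers of other cells gave no call. Dendritic cell genes had a median of -0.13 over 11 analysed of 15, from Irf4, a dendritic cell and lymphocyte factor, at -0.84 ± 0.51 to Itgax, and border-associated macrophage genes 0.15 over 8 of 11, from the sialic acid receptor Siglec1 at -0.34 ± 0.62 to the chemokine Pf4 at 1.13 ± 0.66. Of lymphocyte genes, 5 of 15 T and NK cell genes were analysed, with a median of 0.17, from Klrb1c, the NK1.1 antigen, at 0.05 ± 0.71 to the kinase Lck at 0.92 ± 0.59. The 6 B cell genes analysed of 9 had a median of -0.04, from the receptor chain Cd79a at -0.71 ± 0.53 to Cd22, a B cell lectin, at 0.91 ± 0.47. Of 15 neutrophil genes 3 were analysed, with a median of -0.25, from the growth factor receptor Csf3r at -0.71 ± 0.38 to the collagenase Mmp8 at 0.35 ± 0.54, so a share of neutrophils could hardly be read. Glioma and stem-like genes had a median of -0.33 over 8 of 10, from the intermediate filament Vim, which monocytes also express, at -1.03 ± 0.49 to the stem cell antigen Prom1 at 0.09 ± 0.41. Astrocyte genes had a median of -0.01 over 7 of 7, from the gap junction protein Gja1 at -0.47 ± 0.44 to the folate enzyme Aldh1l1 at 0.67 ± 0.66, and oligodendrocyte genes -0.09 over 5 of 7, from the myelin proteins Mbp at -0.85 ± 0.46 to Cnp at 0.70 ± 0.43. Neuron genes had a median of -0.32 over 5 of 8, from Rbfox3, the NeuN antigen, at -0.52 ± 0.63 to Gad1, which makes the transmitter GABA, at 0.28 ± 0.48, and endothelial genes -0.13 over 6 of 9, from the junction protein Esam at -0.48 ± 0.45 to Pecam1, or CD31, at 0.91 ± 0.50. List averages overlapped between the populations in each of these 10 lists, and a centred score has no level that means absence, so no marker could be read as missing. The part of such cells in the results was not tested.

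Taken 1 experiment at a time, the monocyte list kept its side and few genes were called. In WT recipients, 4 against 4 libraries, 1 of 17586 genes fell, S100a4 (0.00569%, limma adjusted p = 0.0062), and 0 rose (0%), with 835 at an unadjusted p below 0.05. That call was lost without undifferentiated library 13 or 21, and the count of lower genes was 2 without differentiated library 20 and 5 without differentiated library 4. In Pep3 recipients 1 gene fell, AK158619 (0.00569%, limma adjusted p = 0.0160), and 0 rose (0%), with 385 at an unadjusted p below 0.05. AK158619 differed by -6.46 in Pep3 and by -1.67 in WT recipients. Its call in Pep3 recipients was lost without differentiated libraries 7, 15 or 23 or undifferentiated libraries 16 or 24. The classical monocyte median was -1.07 with 20 of 20 differences negative in WT recipients, and -0.63 with 15 of 20 negative in Pep3 recipients. In both recipients 15 of the 20 were negative, where 27.9% of all genes were. The complement and lipid-associated median was 0.33 in WT and 0.48 in Pep3 recipients, with 16 of 19 members positive in both, against 21.6% of all genes. The proliferation median was 0.52 in WT and 0.59 in Pep3 recipients, with 12 of 22 positive in both, and the homeostatic microglia median was 0.19 in WT and 0.48 in Pep3 recipients, with 12 of 16 positive in both.

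Of the monocyte markers, Ccr2 differed by -2.50 in WT and -0.94 in Pep3 recipients, and the difference between recipients had an unadjusted p of 0.133. Tested over all genes, the contrast differed between recipients for 0 genes in either direction (0%) at an adjusted p below 0.05 in limma, with 710 at an unadjusted p below 0.05. That count, and those of 835 in WT and 385 in Pep3 recipients, were each under what the threshold alone gives if no gene differed. With 4 libraries against 4, the median SE over all genes was 0.67 in WT and 0.67 in Pep3 recipients.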

How the data were processed

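RNA of sorted cells was turned into cDNA with the SMART-Seq v4 low-input kit, per the labels' protocols, and FastQC, STAR 2.5.0a, RSEM 1.3.0 and build mm9 are named in the submitters' processing notes. The authors deposited 1 table of signed scores for 17586 genes and 32 libraries. How counts became these scores is not given in the sources used here, and it includes a step that left 11 sample directions without variation. Depth is unknown.

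The scores were used as deposited, with no filter or pseudocount, in limma 3.58.1 on R 4.3.3. Every combination of population and recipient had a mean, the removed directions were covariates, and 15 residual degrees of freedom were left. Variances were moderated by robust empirical Bayes, tests were two-sided, and p-values were adjusted over all genes by Benjamini-Hochberg, with 0.05 as the threshold for a call. How much own variation a library kept is the squared norm of its unit vector after projection onto the directions that the table still holds. The fit was run on simulated data with independent normal noise, from which the same directions had been removed. That run covers only data of this form. No 2 macrophage libraries were copies (highest correlation 0.889). Matching symbols that the table lists under older names were used as listed.

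The genes named by rule were those called, the markers Ly6c2, S100a4 and Ccr2, the 5 genes at each end of the ranking by the moderated statistic, and the highest and lowest member of each list. Other genes named in the text were chosen after their values were seen. Members and the 32 lists were chosen with earlier results of these data known, so no list was tested. Promoter windows are RefSeq's for GRCm38.p6. A few genes of the lists are counted with them but not reported by name here.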

Additional observations from a re-analysis of the deposited data

Results flagged for a closer look

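In 13 of 146 groups of 8 libraries, covering 73 named genes, the highest or lowest score stood apart from the others, with a gap to the nearest library, as a share of the group's range, above the critical value of 0.526. Chance alone gives about 1 in 20 groups.

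In differentiated macrophages, mKIAA1998 in library 15 was high (3.24 against 1.36 in the nearest library, gap share 0.674). Pecam1, an endothelial and leukocyte adhesion protein, was low in library 15 (-1.42, gap share 0.703). Lck, a lymphocyte kinase, was low in library 23 (-1.10, gap share 0.605). Rbfox3, a neuronal protein, was low in library 20 (-1.61, gap share 0.613). Cyc1, a mitochondrial cytochrome, was high in library 12 (1.58, gap share 0.546), and Mmp8, a neutrophil collagenase, was high in library 7 (2.73, gap share 0.553).

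In undifferentiated macrophages, library 13 was low for the IgG receptor Fcgrt (-3.14, gap share 0.820) and for the B cell lectin Cd22 (-1.62, gap share 0.664), and high for the junction protein Esam (2.19, gap share 0.534). Library 21 was low for the class II gene H2-DMb2 (-4.47, gap share 0.596) and high for Thbs1 (3.30, gap share 0.615) and Mmp8 (1.85, gap share 0.530). Library 16 was low for mKIAA1998 (-3.64, gap share 0.607). Each of these libraries kept over 50% of its own variation.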

How the results depend on the processing

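The number of genes called lower in differentiated macrophages was 2. It was 0 with no terms for the removed directions, and in the 16 macrophage libraries alone with or without those terms. It was also 0 with no terms and without the libraries that kept under 50% of their own variation. These low-kept libraries were 9 in the whole series, of which 4 were macrophage libraries. Runs of 8 library numbers as a factor gave 0 as well. The number was 1 without the low-kept libraries and with terms, 4 with array weights, and 0 to 3 when 1 macrophage library was left out. In each alternative limma called 0 genes higher, with 148 to 363 at an unadjusted p below 0.05 in the 9 alternatives that change the fit or drop the low-kept libraries. In WT recipients the count of lower genes was 1 and became 0 with no terms, in the macrophage libraries alone with or without terms, and without the low-kept libraries and no terms, and lay between 0 and 5 when 1 library was left out. In Pep3 recipients it was 1 and became 0 with no terms, in the macrophage libraries alone with or without terms, and without the low-kept libraries with terms, and lay between 0 and 1 when 1 library was left out. The count of genes called higher in differentiated macrophages within Pep3 recipients was 0 and reached 1 without undifferentiated library 24 (range 0 to 1). For the difference between recipients, WT minus Pep3, the count of genes called above 0 was 0. It reached 1 without differentiated library 15 (range 0 to 1). Such a gene may be one that fell further in Pep3 recipients. The cause of these changes was not tested. The smaller fits also had fewer samples and residual degrees of freedom. Ly6c2 kept its sign in 27 of 27 alternatives and was called in 13, with adjusted p from 0.00168 to 1.00, and S100a4 kept its sign in 27 of 27 and was called in 12. Of 32 list medians 10 kept their sign in all 27 alternatives, among them classical monocyte (-1.22 to -0.19), complement and lipid-associated (0.32 to 0.71), proliferation (0.10 to 0.62) and homeostatic microglia genes (0.05 to 0.80). Of the 62 list members named by rule 35 kept their sign throughout. The count of genes whose scores did not overlap was 1 lower and 0 higher over all macrophage libraries, and 17 lower and 11 higher in the libraries that kept over 50%, an alternative chosen after seeing the data. No paired analysis was possible because the labels give the groups no shared replicate number, animal or batch. The runs of 8 library numbers, each with 4 macrophage libraries, rest on the numbering alone. Depth is unknown, so what it limits could not be assessed.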
